A study of Mus musculus with 696 samples.

Results

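Krt36, Krt84 and Mt4 are 3 of the 15652 genes counted in single tail-skin keratinocytes that descend from Lrig1-expressing cells of the upper hair follicle. They were picked by name as genes of the tail scales, with their level per plate, their share of positive cells and their co-expression in this same table already known. All values below are therefore a description of these cells, and the p-values given for them support nothing beyond the numbers themselves. The scale list that the study took from an earlier publication holds Krt36 and Krt84 but not Mt4, and several of the genes closest to Mt4 in these cells are on the interscale list.

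Tail epidermis of the mouse is laid out in scales, which form a hard, nucleated cornified layer, and in the interscale epidermis between them, which makes the usual granular layer. Krt36 and Krt84 are hard keratins, the kind used in hair, nail and the filiform papillae of the tongue. Krt36 is an acidic (type I) and Krt84 a basic (type II) chain, and keratin filaments are built from a pair of the 2 types. Mt4 is not a keratin. It is a metallothionein, a small cysteine-rich protein that binds zinc and copper, and the member of its family known from stratified squamous epithelium.

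Cells came from female mice of a mixed CBA C57BL/6 strain that carried Lrig1-EGFP-ires-CreERT2 and Rosa26-fl/STOP/fl-tdTomato in all groups, so that tdTomato marks cells in which the Lrig1 locus drove Cre, and their progeny. Hydroxytamoxifen was put on the tail once, at 6 to 8 weeks of age, and sorted tdTomato+ cells were read by Smart-seq2. They came from unwounded skin (0w) and from skin 1 week into the healing of a full-thickness wound (1w pw1). Skin was also taken 8 weeks after that wound (8w pw1), when the study describes a new homeostasis. The last group was skin wounded again over the healed site and left for 1 week (1w pw2, week 9). The sorted tissue held the wound bed together with more distant follicles. There were 179, 168, 172 and 177 cells at these time points, on 2 plates each, and a plate is the replicate in what follows. By the methods the cells come from 2 separate experiments with 4 biological replicates in each. The labels tie neither cells nor plates to an animal or an experiment, so how much of the spread between plates is biological is not known. The 2 plates of a time point also share a replicate letter that no other time point has. Whatever that letter stands for cannot be told apart from the time point. The labelling came 1 week before the first wound, so time since labelling and mouse age also rose with the time point. No unwounded group of matched age is among these cells, so neither can be told apart from the wounds.

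Total estimated counts ranged from 12293182 to 19760820 per plate, and the median cell held 64980 counts on the shallowest plate (8w pw1 replicate 2) and 256588 on the deepest (1w pw1 replicate 2). Krt14, a keratin of basal keratinocytes, had at least 1 count in 620 of 696 cells (89.1%). Markers of other cells were rare, with Ptprc of immune cells in 27 cells, Dcn of fibroblasts in 30 and Dct of melanocytes in 62. Pecam1, an endothelial marker, was counted in 687 cells, but Kdr, another one, in 4.

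Krt36 lies on chromosome 11 of the GRCm38 assembly (100102007 to 100105626, minus strand, 7 exons), in the type I keratin cluster between Krt35 and Krt13. Krt84 lies on chromosome 15 (101525026 to 101532820, minus strand, 9 exons in its longest transcript), in the type II cluster between Krt83 and Krt82. Mt4 lies on chromosome 8 (94137197 to 94139031, plus strand, 3 exons), at one end of the metallothionein cluster that continues with Mt3, Mt2 and Mt1. The upstream sequences are shown because Krt36 and Krt84 were found together in a few cells whereas Mt4 was found in many more. Each is the 250 bases before the RefSeq start site on GRCm38.p6, at chr11:100105627-100105876 (minus strand), chr15:101532821-101533070 (minus strand) and chr8:94136954-94137203 (plus strand), printed 5′ to 3′ on the strand of the gene. Capitals mark a TATA box (TATAAA or TATATAA) and, in Mt4, the core of a metal response element (TGCACNC or TGCGCNC), both searched on both strands.
Krt36: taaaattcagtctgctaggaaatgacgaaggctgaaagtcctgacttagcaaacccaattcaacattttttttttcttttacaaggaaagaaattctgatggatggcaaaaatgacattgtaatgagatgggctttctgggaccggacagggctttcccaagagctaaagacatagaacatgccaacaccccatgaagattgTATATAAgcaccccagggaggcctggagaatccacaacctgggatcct
Krt84: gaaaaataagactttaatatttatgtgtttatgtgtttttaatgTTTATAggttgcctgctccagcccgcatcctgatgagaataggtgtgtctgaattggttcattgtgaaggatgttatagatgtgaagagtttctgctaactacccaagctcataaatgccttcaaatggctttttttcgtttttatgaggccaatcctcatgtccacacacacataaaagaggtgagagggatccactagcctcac
Mt4: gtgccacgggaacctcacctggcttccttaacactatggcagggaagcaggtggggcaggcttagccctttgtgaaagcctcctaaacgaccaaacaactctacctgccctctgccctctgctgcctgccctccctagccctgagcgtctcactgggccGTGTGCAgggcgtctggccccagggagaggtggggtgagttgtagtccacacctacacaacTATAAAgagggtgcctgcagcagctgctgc

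The TATA match of Mt4 begins 30 bases before the start site and that of Krt36 48 bases before it, both on the strand of the gene. The match of Krt84 lies 206 bases before the start and on the other strand. A TATA match was present in 13.8% of the 32851 RefSeq windows of the same length. The metal response element core, the site of the zinc-sensing factor Mtf1, was matched once in Mt4, on the opposite strand and 91 bases before the start, and in 0 places in Krt36 and Krt84. It was present in 21.4% of all windows, once in that of Mt1 and 3 times in that of Mt2. The core CTTTGAA or CTTTGTA of LEF1, a factor of hair keratin genes, was in none of the 3 windows and in 7.53% of all. The G+C content was 60.4% for Mt4, 42.8% for Krt36 and 38.8% for Krt84.

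Mt4 was measured in the most cells of the 3 genes and had the highest level on every plate but 1w pw2 replicate 2, where Krt36 and Krt84 exceeded it. At 0w the plates held a level of 18.5 and 5.34 CPM, the rate of counts of a gene in the library total after TMM scaling. At 1w pw1 they held 577 and 361 CPM, at 8w pw1 233 and 78.8 CPM, and at 1w pw2 425 and 315 CPM. Every plate taken after a wound lay above both 0w plates, the 8w pw1 plates lay below those of either 1-week time point, and the plates of 1w pw1 and 1w pw2 overlapped. The mean was 39.4 times that of 0w at 1w pw1, 13.1 times at 8w pw1 and 31.1 times at 1w pw2. These ratios rest on 0w plates that differ, and leaving out single plates moved the log2 fold changes given next between 4.65 and 6.42, between 2.73 and 4.79 and between 4.31 and 6.08 in that order, the highest of each without 0w replicate 1.

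**Figure D1:**
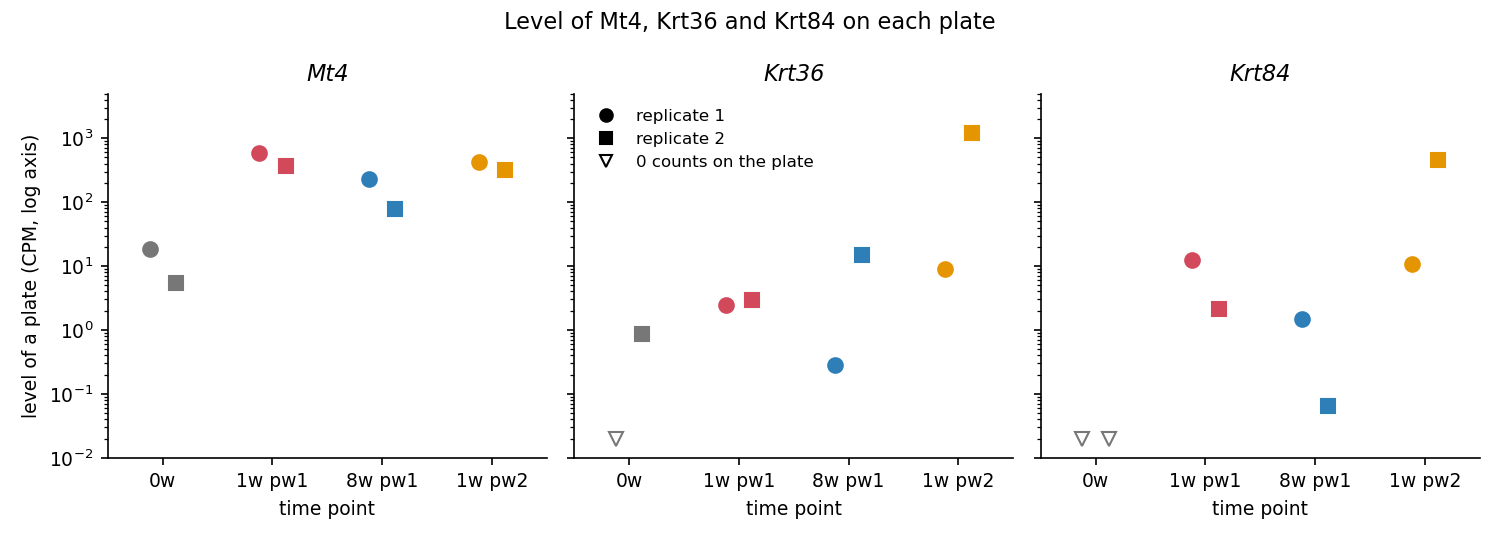
Level of Mt4, Krt36 and Krt84 on each of the 8 plates in CPM on a log axis, with 1 point per plate (circle, replicate 1, square, replicate 2) and open triangles for plates with 0 counts. Mt4 sits at 5.34 and 18.5 CPM at 0w and between 78.8 and 577 CPM afterwards, and Krt36 and Krt84 reach 1214 and 449 CPM on 1w pw2 replicate 2 alone.

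In the edgeR fit over all 8 plates Mt4 passed the threshold, set at a fold above 2 and an adjusted p below 0.05, at 1w pw1 against 0w. Its log2 fold change there was 5.30, with an SE of 0.81 and an edgeR adjusted p of 0.0241. The contrast of 1w pw2 with 0w passed too, at 4.96 with an SE of 0.80 and an edgeR adjusted p of 0.0433. In the first of these contrasts 0.404% of the 13853 genes tested were called as higher, and in the other 0.238%. With the genes chosen as they were, nothing is read from that comparison. For 8w pw1 the log2 difference from 0w was 3.71, with an SE of 0.75 and an edgeR adjusted p of 0.362. In that contrast edgeR called 0 genes, 897 had an unadjusted p below 0.05, and DESeq2 called 163 with Mt4 among them (adjusted p 1.04e-04). With the replicate block edgeR called 236 genes in place of 73 at 1w pw1, 3 in place of 0 at 8w pw1 and 96 in place of 37 for the last time point, with no change to the calls of Mt4. These calls are fragile. Mt4 at 1w pw1 lost its call without any plate of 0w or 1w pw1 (adjusted p 0.0511 to 0.110), and with a stricter cell filter (0.312) that left 9 cells on 0w replicate 2. At 1w pw2 it lost the call without any plate of 0w, 1w pw1 or 1w pw2 (0.0638 to 0.196).

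The healings were compared through Mt4 as well. From 8w pw1 to 1w pw2 its log2 change was 1.25 (SE 0.68, edgeR adjusted p 0.691), in a contrast where 0.00722% of genes were called. The difference between this change and that from 0w to 1w pw1 was -4.05 (SE 0.99), with an unadjusted edgeR p of 0.00213 and an adjusted p of 0.691. With DESeq2 the same difference had an adjusted p of 0.0145. Between the 1-week time points the log2 difference was -0.34 (SE 0.67, edgeR adjusted p 0.939).

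The share of cells with at least 1 count of Mt4 followed the same order. It was 6.82% and 8.79% on the 0w plates, 49.4% and 55.7% at 1w pw1, 27.1% and 24.1% at 8w pw1, and 43 of 86 and 45 of 91 cells at 1w pw2. Over both plates, 14 of 179 cells were positive at 0w (7.82%, exact 95% interval 4.34 to 12.8), 88 of 168 at 1w pw1 (52.4%, 44.5 to 60.1), 44 of 172 at 8w pw1 (25.6%, 19.2 to 32.8) and 88 of 177 at 1w pw2 (49.7%, 42.1 to 57.3). Such intervals treat the cells as independent draws, so they hold counting error alone and not the spread between plates or animals. The reads also carry no molecular identifiers. The 2 plates of a time point were close to each other, and 2 plates against 2 cannot give an exact two-sided permutation p below 0.333. When each cell was thinned to 50000 counts, leaving out 11 to 24 shallower cells per 0w plate, 5 to 16 per plate at 1w pw1, 16 and 37 at 8w pw1 and 11 and 16 at 1w pw2, the expected share was 6.23% and 11.3% on the 0w plates, 46.2% and 43.9% at 1w pw1, 26.8% and 14.7% at 8w pw1, and 47.9% and 47.1% at 1w pw2. The same cells before thinning had 6.49% and 11.9% on the 0w plates, 53.4% and 55.4% at 1w pw1, 30.4% and 16.0% at 8w pw1, and 53.3% and 54.7% on the last pair of plates.

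Within positive cells the level of Mt4 did not follow that order. The median positive cell held 255 and 83.6 CPM on the 0w plates, 452 and 169 CPM at 1w pw1, 247 and 696 CPM at 8w pw1, and 388 and 184 CPM at 1w pw2. The time points overlapped in this measure, and the plate with the highest median belonged to 8w pw1. The highest cell on a plate held between 18.9% and 41.6% of the Mt4 counts of that plate, so no plate rested on a single cell. In a summed plate, fewer positive cells and less RNA per cell cannot be told apart, and since a positive cell is one with a count at its own depth, the shares and medians above do not fully separate them either.

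**Figure D2:**
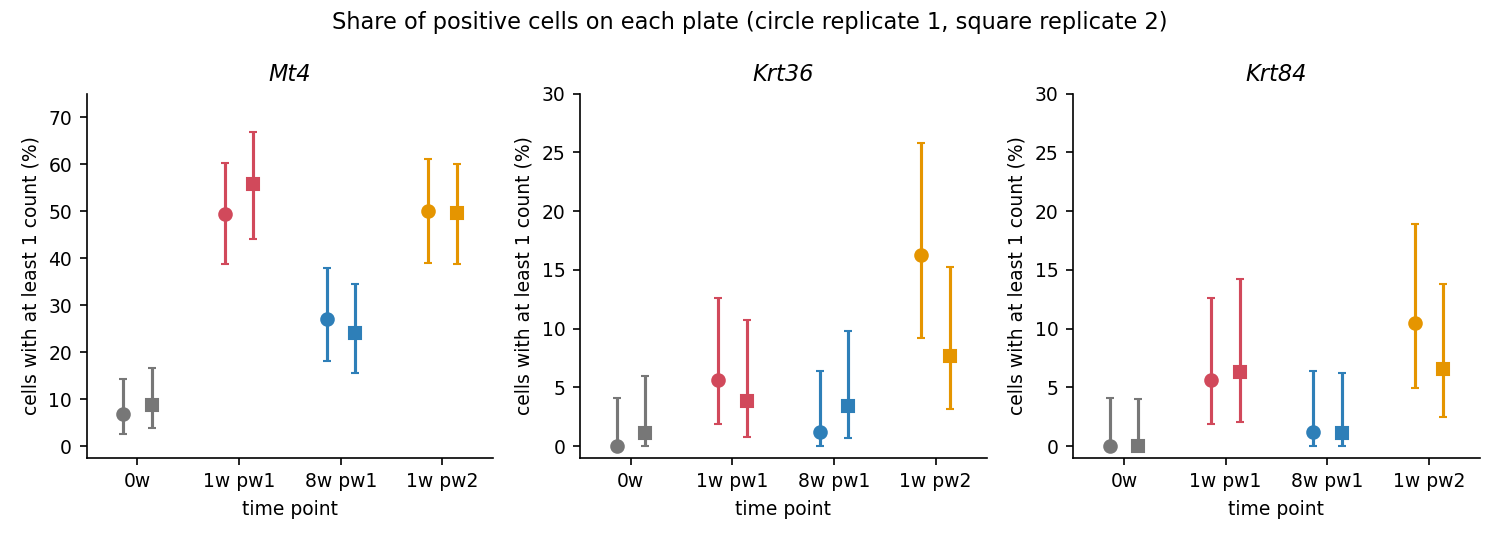
Percentage of cells with at least 1 count of Mt4, Krt36 or Krt84 on each plate, with exact 95% intervals (circle, replicate 1, square, replicate 2, and the Mt4 axis runs higher). The Mt4 share is below 10% on both 0w plates and near 50% on the plates of 1w pw1 and 1w pw2, and Krt36 and Krt84 stay below 17% on all plates.

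Krt36 was close to absent before wounding. It had 0 counts on 0w replicate 1 and 16 counts, all from a single cell, on 0w replicate 2 (0.863 CPM). The plates of 1w pw1 held 38 and 51 counts (2.48 and 2.99 CPM), those of 8w pw1 4 and 226 counts (0.288 and 14.7 CPM), and those of 1w pw2 127 and 22508 counts (8.89 and 1214 CPM). The plates of 1w pw1 and of 1w pw2 lay above both 0w plates, and those of 8w pw1 ranged across them. By means the order was 0w (0.432 CPM), 1w pw1 (2.74), 8w pw1 (7.52) and 1w pw2 (612), but 8w pw1 overlapped all of its neighbours in that order.

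The tall values of Krt36 came from single cells. A single cell held 99.4% of the Krt36 counts on 1w pw2 replicate 2, another 96.9% of those on 8w pw1 replicate 2, and a further one 94.1% of those on 1w pw1 replicate 2. On 1w pw2 replicate 1, by contrast, the highest cell held 18.1%. On the replicate 2 plates of 1w pw2, 8w pw1 and 1w pw1, the highest cells had 13.1%, 39.3% and 34.6% mitochondrial counts. The stricter cell filter allowed up to 20%. The edgeR log2 difference of 1w pw1 from 0w was 2.66 (SE 2.06), that of 8w pw1 4.11 (SE 2.11) and that of 1w pw2 10.45 (SE 2.64). Leaving out single plates moved these between 1.62 and 8.48, between -0.64 and 9.94 and between 4.34 and 16.27 in that order. None of the 3 passed the threshold, and the smallest edgeR adjusted p, 0.166, belonged to 1w pw2, which DESeq2 called (adjusted p 0.00325). With the replicate number as a block, edgeR called it as well (9.82, adjusted p 0.0472). Without the 1 highest cell the value at 1w pw2 was 4.23 (adjusted p 0.367), and the log2 difference of 1w pw2 from 8w pw1 went from 6.34 to 0.13.

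Counted by cells, Krt36 was seen in 34 of 696. There were 0 and 1 positive cells on the 0w plates, 5 and 3 at 1w pw1, 1 and 3 at 8w pw1, and 14 and 7 at 1w pw2. The share was 0.559% at 0w (exact 95% interval 0.0141 to 3.07), 4.76% at 1w pw1 (2.08 to 9.17), 2.33% at 8w pw1 (0.637 to 5.85) and 11.9% at 1w pw2 (21 of 177 cells). Both plates of 1w pw2 had a higher share than any other plate, at 16.3% and 7.69%. Among cells of at least 50000 counts this held for replicate 1 alone (18.7%, and 15.5% after thinning to that depth), since replicate 2 had 3 positive cells of 75 and 1w pw1 replicate 1 had 6.85% (3.77% and 5.43% after thinning). Most of these cells were weakly positive, with a median of 6.50 counts. With at least 10 counts required, the share at 1w pw2 was 5.08% and that at 1w pw1 1.19%.

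Krt84 was not detected at 0w, with 0 of 179 cells. At 3 counts of the total this allows a share of up to 1.68% of cells with a count, and the exact 95% upper limit is 2.04%, neither of which bounds the share of cells that express the gene. The plates held 192 and 36 counts at 1w pw1 (12.6 and 2.11 CPM), 21 and 1 at 8w pw1 (1.51 and 0.0652 CPM), and 154 and 8323 at 1w pw2 (10.8 and 449 CPM). The plates of 1w pw2 lay above those of 8w pw1 but overlapped those of 1w pw1. Taken against 3 counts over both 0w plates, the 1w pw1 mean was at least 92.4-fold higher, the 8w pw1 mean at least 9.94-fold and the 1w pw2 mean at least 2897-fold. On single plates the values were 26.6 and 158 at 1w pw1, 0.822 and 19.1 at 8w pw1, and 136 and 5658 at 1w pw2, so that 8w pw1 replicate 2 alone lay under the limit. These bounds also lean on few cells, and without the highest cell of each plate they were 7.27 at 1w pw1 and 189 at 1w pw2, while 8w pw1 was left with 0 counts.

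With edgeR Krt84 passed the threshold in 0 of the 6 contrasts. Against 0w the edgeR adjusted p-values for 1w pw1, 8w pw1 and then 1w pw2 were 0.194, 0.775 and 0.0962, from unadjusted values of 0.00676, 0.0647 and 6.31e-04. By contrast, DESeq2 called the gene in 1w pw1 and 1w pw2, with adjusted p-values of 0.0132 and 1.92e-05. Over all plates left out in turn the edgeR adjusted p at 1w pw2 ranged from 0.0245 to 0.308. The lowest came without 1w pw2 replicate 1, a fit that leaves that time point with the plate where 1 cell holds 94.7% of the Krt84 counts and takes the spread of this lone plate from the other time points.

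Positive cells of Krt84 numbered 0 and 0 at 0w, 5 and 5 at 1w pw1, 1 and 1 at 8w pw1, and 9 and 6 at 1w pw2, 27 in all. The share was 5.95% at 1w pw1 (exact 95% interval 2.89 to 10.7), 1.16% at 8w pw1 (0.141 to 4.14) and 8.47% at 1w pw2 (4.82 to 13.6). At 1w pw1 the positive cells were faint, with a median of 4.37 CPM against 75.1 CPM at 1w pw2. There the share fell to 1.79% when 10 CPM were required and to 2.92% after thinning to 50000 counts.

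Per kilobase of transcript, the mean level of Mt4 in order of time was 29.9, 1178, 391 and 930.3 CPM. In that order Krt36 averaged 0.258, 1.64, 4.50 and 366 on the same scale, and Krt84 averaged 0, 2.85, 0.307 and 89.5. Mt4 was thus the highest of the 3 by length-scaled level at every time point. None of the values above 0 of the 3 genes (34, 27 and 234 values) was fractional, within a tolerance of 0.001, so the estimated counts show no reads shared out with a similar gene.

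The cell that carried most of the Krt36 and Krt84 counts was on 1w pw2 replicate 2. It held 22369 counts of Krt36, 97.4% of all in the table, and 7878 of Krt84, 90.3% of all. Krt36 made up 13.5% of its 165507 counts and Krt84 4.76%. It also held 2314 CPM of Mt4, 3686 CPM of Krt10 (a suprabasal keratin), 4266 CPM of Krtdap, 3128 CPM of Krt16 (a keratin of wounded epidermis) and 2069.8 CPM of Selenbp1, another gene of the scale list. Genes of other classes were present in part. Of the 8 interscale genes 4 had counts in it, with Calm4 at 2289.7 and Krt2 at 248 CPM but Krt1 at 0. Of the 7 basal genes 4 had counts, with Krt14 at 805 CPM but Krt5 at 0, and of the 6 duct genes 3, with Cst6 at 96.7 CPM but Krt79 at 0. Of the 7 late granular genes Tgm3 alone had counts, at 242 CPM. Of the other 90 wells of that plate with a cell, 18 share its row or column, and 0 of the 6 other Krt36-positive and 0 of the 5 other Krt84-positive wells are among them.

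Another cell of the same plate held 1799 CPM of Krt36, 8911 CPM of Krt84 and 5143 CPM of Mt4. A cell of 1w pw1 replicate 1 held 24.6, 1528 and 9380.0 CPM of the 3 genes, with 32567 CPM of Krt10 and 21158 CPM of Krt2. A cell of 1w pw2 replicate 1 held 49.8, 188 and 768 CPM, a cell of 1w pw1 replicate 2 held 344, 165 and 14.3 CPM, and a cell of 8w pw1 replicate 2 held 67.1, 22.4 and 22.4 CPM. These 6 cells are all that were positive for both keratins, and each was also positive for Mt4. None reached 100 CPM of Krt1, which was in 2 of them at up to 49.3 CPM, but of the other interscale genes Calm4 was in all 6 (66.4% of all cells), Krt10 in 5 (73.9% of all cells), Krt2 and Stfa3 in 4 each, Ly6g6c in 3, and Csta1 and Serpinb12 in 1 each. Of the duct genes Krt79 and Gata6 were in none of the 6, Cst6 in 5, Krt17 in 4, Plet1 in 3 and Defb6 in 2. Of the late granular genes Tgm3 was in 4, Ivl in 2 and Casp14 in 1. Lor, which is in 23 of all 696 cells, was in none, as were Flg2, Hrnr and Cdsn. Of the basal genes Krt14 and Dst were in all 6, Col17a1 and Itga6 in 5 each, Itgb4 in 4, Krt5 in 3 and Itga3 in 0. Of the wound genes Krt16 was in 5, Krt6a in 4, Sprr1b in 2 and Krt6b in 0. Krtdap and Dsg1a, of early differentiating keratinocytes, were in all 6, and also in 77.2% and 73.6% of all cells. Of the 9 regulators known from hard keratin differentiation, Gata3 had counts in 5 of the 6 (58.9% of all cells), Foxn1 and Msx2 in 4 each (10.8% and 6.75% of all cells), Hoxc13 and Ovol1 in 2 each, Dlx3 and Foxq1 in 1 each, and Lef1 and Prdm1 in 0.

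**Figure D3:**
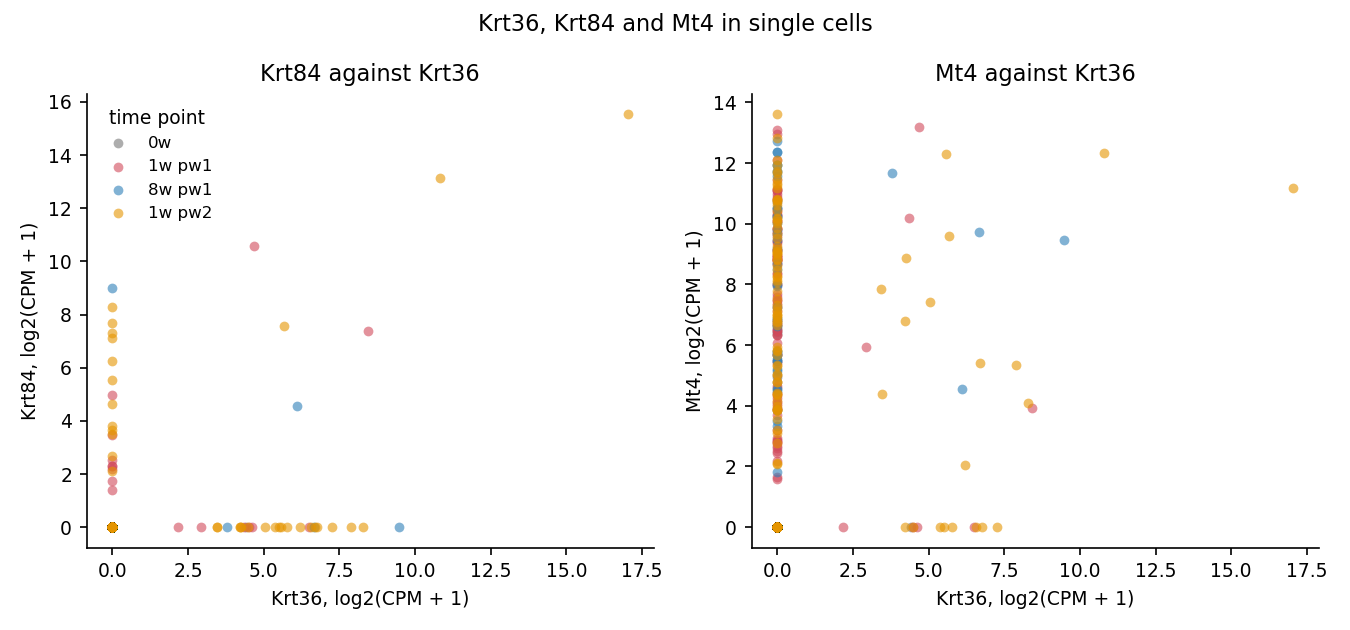
Krt84 (left) and Mt4 (right) against Krt36 in each of the 696 cells, in log2(CPM + 1), coloured by time point. Off the axes the left panel holds 6 cells, the highest of which has 135155 CPM of Krt36 and 47599 CPM of Krt84, and the right panel holds 21 cells.

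Most cells positive for a hard keratin held a single one. Of the 55 cells positive for Krt36 or Krt84, 28 had Krt36 alone, 21 had Krt84 alone and 6 had both, which is 17.6% of the Krt36-positive and 22.2% of the Krt84-positive cells. In order of time, 1, 16, 5 and 33 of them came from the 4 time points. The most Krt36 without any Krt84 was 219 counts, in a cell of 8w pw1 replicate 2 that also held 221 counts of Mt4. With at least 10 counts of each required, 4 cells were positive for both, 30.8% of 13 and 44.4% of 9. The cells positive for either keratin were deeper than the rest (median 170726 against 129527 counts), and the part of depth in these counts was not tested.

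Mt4 was present in 21 of the 34 Krt36-positive cells (61.8%) and in 14 of the 27 Krt84-positive cells (51.9%), against 33.6% of all cells. That 33.6% pools time points with Mt4 in 7.82%, 52.4%, 25.6% and 49.7% of cells, in order of time. From 1w pw1 and 1w pw2 came 8 and 21 of the Krt36-positive cells and 10 and 15 of the Krt84-positive ones. The share of all cells is therefore no matched background. Conversely, Krt36 was in 8.97% and Krt84 in 5.98% of the 234 Mt4-positive cells. With at least 10 counts required, the Krt36-positive cells with Mt4 were 4 of 13 (30.8%) and the Krt84-positive ones 5 of 9 (55.6%), against 22.1% of all cells. This share is not matched either. Of these cells, 6 and 3 with Krt36 and 3 and 3 with Krt84 were on the plates of 1w pw2. There 32.6% and 33.0% of cells had 10 counts of Mt4. The Pearson r of plate-centred log2(CPM + 1) over the 696 cells was 0.41 for Krt36 with Krt84, 0.11 for Krt36 with Mt4 and 0.08 for Krt84 with Mt4. The cells of a plate share their library preparation and depth, and r between such sparse genes is a description. For the keratin pair it was 0.26 without the highest cell, 0.19 without 1w pw2 replicate 2 and 0.57 without 1w pw2 replicate 1. It was 0.57 with a pseudocount of 10 CPM, and between -0.01 and 0.70 within the 6 plates where both were counted. Spearman's rho of the centred values was 0.58. It ranks cells at 0 counts by the mean of their plate, so it also holds differences between plates.

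The genes most like Krt36 and Krt84 over cells were few. Krt84 was first for Krt36 and Krt36 for Krt84. For Krt36 the next were Mettl7a3 (0.21), Dmpk (0.20), Nptxr, Tead4, Serpinb13 (each 0.18), Clba1 and Selenbp1 (each 0.17). For Krt84 they were Dmpk and Mettl7a3 (each 0.27), Selenbp1 (0.25), Serpinb13 (0.23), Zfp85 (0.22), Elmo2 (0.21) and Armc6 (0.20). These values are weak, and 1 of the 12704 genes ranked reached an r of 0.3 for either keratin. Several also rest on the cell with the most Krt36, without which Nptxr had 0.20, Mettl7a3 0.14 and the other 5 named for Krt36 0.09 to 0.12, while the 7 for Krt84 had 0.08 (Armc6) to 0.21 (Mettl7a3). Selenbp1, a selenium-binding protein, was in 9 of the 27 Krt84-positive cells (33.3%) and in 15.5% of all cells.

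Mt4 had closer partners, with 76 genes at an r of 0.3 or above. The first was Krt1 (0.72), the type II keratin of suprabasal interscale epidermis, followed by the serpin Serpinb12 (0.64), the transglutaminase Tgm3 (0.59), Tdh and Oas1f (each 0.58), the suprabasal keratin Krt2 (0.56), the calmodulin-like Calm5 (0.55) and the surface antigen Ly6a (0.53). Krt1 and Mt4 correlated on every plate, from 0.49 on 0w replicate 2 to 0.79 on 1w pw1 replicate 1. Of the 234 Mt4-positive cells 198 had Krt1 counts (84.6%), against 41.7% of all cells. Krt1, Serpinb12 and Krt2 stand on the interscale list. Over the 8 interscale genes r with Mt4 ran from 0.04 (Ly6g6c) to 0.72, and over the 7 other scale genes from -0.14 (S100a6) to 0.45 (Krt24), with Fgfbp1 at 0.25. Early differentiating genes on neither list lay between 0.00 (Sbsn) and 0.38 (Krtdap), and the regulator Foxn1 reached 0.32. The first genes of the ranking thus include genes of the interscale list, although Krt24, Fgfbp1 and Foxn1 went with Mt4 too. The study describes the healing contribution of Lrig1-derived cells as specifically interscale. Only 4 cells held at least 100 counts of Krt36 or Krt84, so the ranking cannot decide whether Mt4 belongs to scales.

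The lists were then read in Mt4-positive and Mt4-negative cells of the same plate. Of the 8 interscale genes 5 (Krt1, Calm4, Serpinb12, Krt10 and Stfa3) were higher in Mt4-positive cells on all 8 plates, and the median over the list of the log2(CPM + 1) difference was 3.52. Krt1 differed by 7.58 and Calm4, a calmodulin-like protein of differentiating keratinocytes, by 4.31. Of the 7 other scale genes Krt24 and Fgfbp1 were higher on all 8 plates and S100a6 and Id2 lower, with a list median of -0.25. Of the 9 hard keratin regulators Foxn1 (25.2% positive in Mt4-positive and 3.46% in other cells) and Ovol1 (53.8% and 24.7%) were higher on all 8 plates and Prdm1 lower. Over the 13167 genes positive in at least 20 cells, 3.02% were higher and 2.98% lower on all 8 plates, with a median of -0.0163.

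Many genes of other follicle compartments were lower beside Mt4, with exceptions in the sebaceous gland and duct lists. Of the 6 genes of the upper follicle duct Krt79 and Gata6 were lower in Mt4-positive cells on all 8 plates, Krt79 with a median difference of -3.75. Of the 5 bulge genes Sox9, Lhx2 and Krt15 were lower on all 8 plates, and of the 7 sebaceous gland genes Awat2, Pparg, Plin2, Cidea and Soat1. The other sebaceous genes, Scd1 and Mgst1, were higher on 6 of 8 plates, with median differences of 1.91 and 0.23. Of the early differentiating genes 7 of 8 were higher on all 8 plates. The 7 late granular genes were split, with a list median of 0.00. Among them Tgm3 was higher on all 8 plates (median difference 2.66) and Casp14 on 7, Cdsn was lower on all 8, and Lor was positive in 2.99% of Mt4-positive and 3.46% of other cells. Mt4-positive cells held a median of 150255 counts and the others 122440.0, and the part of this difference in the values above was not tested.

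**Figure D4:**
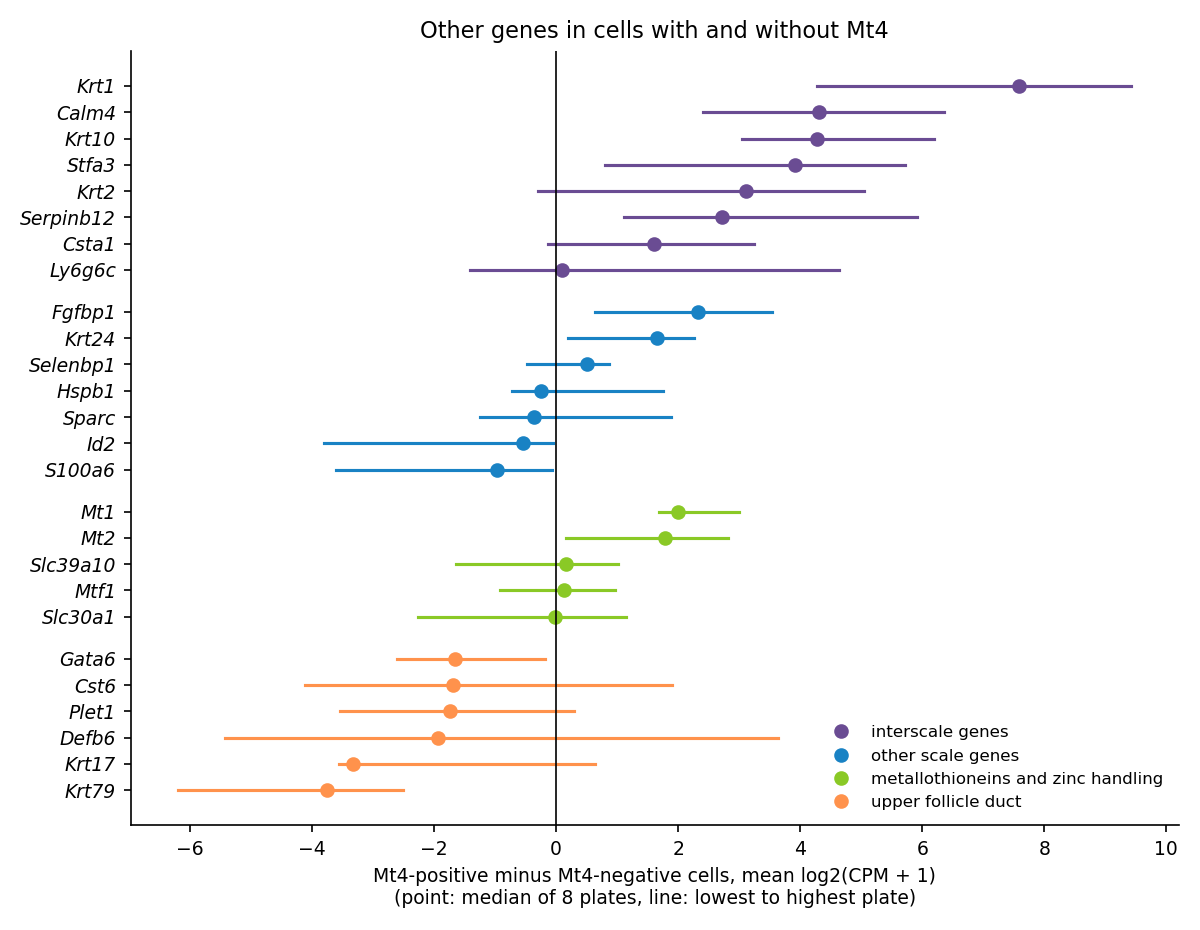
Difference between Mt4-positive and Mt4-negative cells of the same plate in mean log2(CPM + 1) for the genes of 4 lists, as the median of 8 plates (point) and the range from the lowest to the highest plate (line). Interscale genes reach 7.58 for Krt1, the other scale genes lie on both sides of 0, and Krt79 lies at -3.75.

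Because Mt4 went with Krt1, its share was taken apart by the level of Krt1, a split chosen after seeing the data. Cells with at least 100 CPM of Krt1 made up 17 of 179 cells at 0w and, in order of time, 47.0%, 15.1% and 44.1% of the cells after wounding. Of these Krt1-high cells 52.9% were Mt4-positive at 0w (9 of 17), 88.6% at 1w pw1 (70 of 79), 88.5% at 8w pw1 (23 of 26) and 87.2% at 1w pw2 (68 of 78). Among the remaining cells 3.09% were positive at 0w (5 of 162, exact 95% interval 1.01 to 7.06), and 20.2%, 14.4% and 20.2% at the later time points in turn. Over time points the share of Krt1-high cells moved with the Mt4 level, but within both 1-week time points the plate with more of them had less Mt4. These shares were 42.7% and 51.9% on the plates of 1w pw1, which held 577 and 361 CPM of Mt4, and 38.4% and 49.5% on those of 1w pw2, which held 425 and 315 CPM. At 0w and 8w pw1 the plate with more Krt1-high cells had more Mt4. Their shares were 10.2% and 8.79% on the 0w plates, which held 18.5 and 5.34 CPM. On those of 8w pw1 they were 18.8% and 11.5%, with 233 and 78.8 CPM. In both classes fewer cells were Mt4-positive at 0w than at any later time point. The part of these shares in the plate levels was not tested.

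Within Krt1-high cells the mean level of Mt4 was 448 and 109.6 CPM on the 0w plates, 1095 and 533 CPM at 1w pw1, 1588 and 1878 CPM at 8w pw1, and 1183 and 529 CPM at 1w pw2. Both plates of 8w pw1 lay above all others in this measure, on 16 and 10 cells, and both 0w plates lay below all others, on 9 and 8 cells. Krt36 and Krt84 were not gathered in these cells, which held 12 of the 34 Krt36-positive cells (35.3%) and 7 of the 27 Krt84-positive cells (25.9%), against 28.7% of all cells. That 28.7% is no matched background, since 16 and 33 of the 55 keratin-positive cells came from 1w pw1 and 1w pw2. There 47.0% and 44.1% of cells were Krt1-high, against 9.50% at 0w and 15.1% at 8w pw1.

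**Figure D5:**
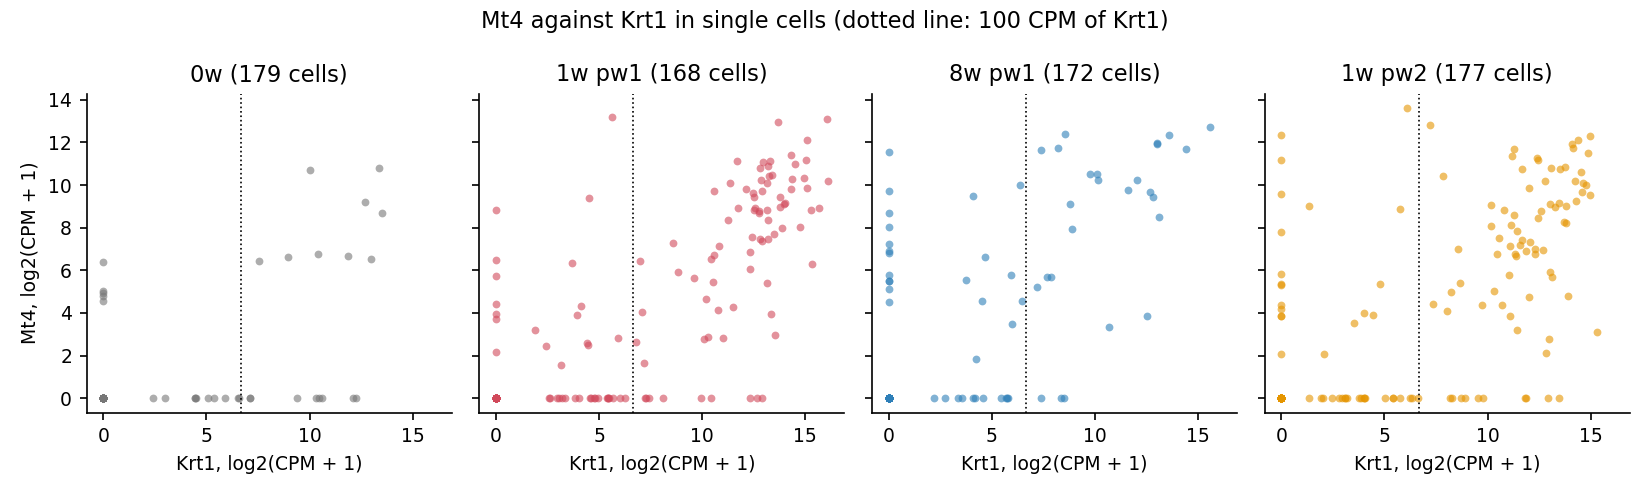
Mt4 against Krt1 in single cells at each time point, in log2(CPM + 1), with a dotted line at 100 CPM of Krt1. Right of the line lie, in order of time, 17, 79, 26 and 78 cells, most of them with Mt4.

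Among related genes, the other metallothioneins were set beside Mt4. Mt1 and Mt2, the metallothioneins that most tissues make, were higher in Mt4-positive cells on all 8 plates, by 1.99 and 1.79 at the median, and their r with Mt4 was 0.35 and 0.21. At the level of plates they did not move as Mt4 did. Mt1 ranged from 152 to 196 CPM at 0w and from 162 to 244 CPM at 1w pw1, a log2 difference of 0.22 with an SE of 0.56 and an edgeR adjusted p of 0.941. In that contrast Mt2 stood at -1.02 on the log2 scale, with an SE of 0.58 and an edgeR adjusted p of 0.567. Of the 5 measured genes of the metallothionein and zinc list, which also holds the sensor Mtf1 and the transporters Slc30a1 and Slc39a10, 0 were called in the 6 contrasts, and r with Mt4 was 0.00 for Mtf1. Mt3 was not analysed here.

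Of the other hard keratins only Krt32, Krt35, Krt83 and Krt87 were analysed here, and their summed level was at most 8.28 CPM on any plate. Krt32, a type I hard keratin, was counted in 64 cells and had its highest plate level at 0w, 6.65 CPM, where Krt36 and Krt84 were lowest. All 4 were at 0 in the cell with the most Krt36. None of the 3 that passed the filter on low counts was called in any contrast. Of the 9 regulators 0 were called, and the median log2 fold change over them at 1w pw2 against 0w was -0.04, beside 0.05 over all genes tested.

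Of the 7 other scale genes 0 were called in any contrast. With at most 0.404% of all genes called as higher in a contrast with 0w, a count of 0 in this list, in the regulators and in the other short lists is near the background and no result about their genes. At 1w pw1 against 0w 5 of the 7 had a positive log2 fold change and the list median was 0.95, beside -0.04 over all genes tested. At 1w pw2 against 0w 4 of the 7 had a positive value and the list median was 0.19, beside 0.05 over all genes. The values there ran from -1.34 for Id2 to 3.77 for Krt24 (SE 0.97, edgeR adjusted p 0.170), with Selenbp1 next to the highest at 3.42 (SE 0.90, edgeR adjusted p 0.180). Of the 8 interscale genes 5 were called as higher at 1w pw1 (Calm4, Serpinb12, Krt2, Krt10 and Stfa3) and 3 at 1w pw2 (Calm4, Serpinb12 and Krt2), beside 0.404% and 0.238% of all genes, and 0 as lower. Their list medians were 4.86 and 3.72, where Mt4 had 5.30 and 4.96. At 8w pw1 the list median was 1.20 and the value of Mt4 3.71, with 7 of the 8 positive and Stfa3 at -1.57, and the difference between the healings was -1.91 for the list and -4.05 for Mt4. Other lists were read in the same contrasts. All 4 wound genes (Krt6a, Krt6b, Krt16 and Sprr1b) were called as higher at both 1-week time points, and their summed level was 50.7 to 52.8 CPM on the 0w plates, 7973 to 13794 CPM at 1w pw1 and 1837 to 2911 CPM at 1w pw2. The 7 sebaceous gland genes had median log2 fold changes of -3.43 and -2.28 with 0 called. Krt1, the gene most like Mt4 across cells, had 4.93 (SE 0.99) at 1w pw1 and missed the call with an edgeR adjusted p of 0.0666.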

How the data were processed

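Single cells were sequenced by Smart-seq2 without molecular identifiers (single-end reads of 75 bp). The authors deposited 1 table of estimated counts, cells by genes, from Salmon 0.13.1 (version from the submitters' processing notes) on an Ensembl annotation of GRCm38. The counts were raw, with 96.6% of them whole numbers. The study filter (1000 genes or more per cell, up to 50% mitochondrial counts) was already applied, and all 696 columns mapped to a labelled sample.

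Counts of each plate (12293182 to 19760820) were summed, rounded and fitted with edgeR 4.0.16 in R 4.3.3 (TMM, default filter on low counts, quasi-likelihood test, time point as the only term, 6 contrasts, Benjamini-Hochberg adjustment over 13853 genes). Deviations of same-numbered plates from their time point means correlated at 0.121 to 0.213 across genes over all 6 pairs of time points. The numbers were therefore taken to pair the plates in the alternative with a replicate block, while the main fit did not use them. This pairing comes from the data. The labels name no shared animal or day, and whether a number marks one of the experiments is not stated. A call needed a fold above 2 and an adjusted p below 0.05. The study tested single cells in its own analysis, but cells of a plate are not replicates. The script was tested on simulated data. A cell was positive with at least 1 count, and intervals are exact Clopper-Pearson at 95%. Correlations used log2(CPM + 1) centred on plate means. Named genes were the 3 genes, the fixed lists, and for each of the 3 the 8 genes with the highest r among those positive in at least 20 cells, without predicted models and pseudogenes. The 3 genes, the lists and the tests were chosen with earlier results of these data known. The scale and interscale lists are the study's, from an earlier publication, and the others were written by hand. Gene positions are from GENCODE M21 on GRCm38, and sequences from RefSeq on GRCm38.p6, in which all 3 genes were matched by symbol. Alternatives were DESeq2 1.42.0, no filter, a replicate block, equal weight of cells, stricter cells (2000 genes or more, up to 20% mitochondrial counts), fewer plates or cells, other thresholds of positivity and other correlations.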

Additional observations from a re-analysis of the deposited data

How the results depend on the processing

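Of the 18 log2 fold changes of the 3 genes under up to 16 alternatives, 251 values kept direction and side of the threshold, 8 newly passed it, 14 no longer passed it and 8 changed sign. DESeq2 newly called Krt36 at 1w pw2 against 0w (10.40), Krt84 for both 1-week time points against 0w (9.55 for the earlier, 14.48 for the later) and for the later against 8w pw1 (8.20), and Mt4 for 8w pw1 against 0w (3.67) and for the difference of the healings (-4.04). The stricter cell filter ended both Mt4 calls (1w pw1 4.77, 1w pw2 4.33), equal weight of cells (4.13, adjusted p 0.0566) and a fit of only the plates compared (4.93, 0.113) the latter alone, each with the cause not tested. Leaving out single plates gave Mt4 4.65 to 6.42 at 1w pw1 against 0w, 4.31 to 6.08 at 1w pw2 against 0w and -0.64 to 0.02 between them, Krt84 10.48 to 15.87 at 1w pw2 against 0w and -6.06 to 1.66 in the difference between the healings, and Krt36 -0.64 to 9.94 at 8w pw1 against 0w and -2.35 to 8.41 in the difference. That difference turned to -2.52 for Krt36 without its highest cell (added after seeing the data) and to -1.30 without the highest cell of each plate. Without those cells Krt84 has no value at 8w pw1 against 0w or in the difference, since 0 counts remain at both, and with the stricter cell filter the difference could not be estimated for Krt36. Fold changes against a group at 0 counts (Krt84 at 0w, Krt36 without 0w replicate 2 or without the highest cells) depend on the prior count.

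With the replicate block Krt36 at 1w pw2 against 0w passed (9.82, adjusted p 0.0472), the calls against 0w numbered 236 in place of 73 for 1w pw1 and 96 in place of 37 for 1w pw2, and no other call of the 3 genes changed. DESeq2 called 732 and 693, and leaving out single plates as few as 8 and 1. The only call from 8w pw1 to 1w pw2 became 291 with DESeq2, 8 with the block, and 0 to 7 otherwise.

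Shares depend on the threshold. With at least 10 counts Mt4 was positive in 5.59% of 0w cells and, in order of time, in 35.1%, 15.7% and 32.8% of the later ones, Krt36 in 1.19%, 0.581% and 5.08% and Krt84 in 1.19%, 0.581% and 3.39% at the last 3. With at least 10 CPM the 1-week time points had Mt4 in 44.6% and 46.3% of cells, and 1w pw1 had Krt84 in 1.79%. After leaving out cells below 50000 counts and thinning the rest, Mt4 was positive, in order of time, in 45.0%, 21.7% and 47.5% of the cells after wounding, and Krt84 in 2.92% at 1w pw1 and in 0% at 8w pw1, where the 2 positive cells were among those left out. By Krt1 level, Mt4 had 52.9%, 88.6%, 88.5% and 87.2% in Krt1-high and 3.09%, 20.2%, 14.4% and 20.2% in other cells. Krt36-positive cells with Mt4 fell to 30.8% at 10 counts, and Krt84-positive ones had 55.6%. For Mt4 0w was the lowest and 8w pw1 the next under each threshold and after thinning, while 1w pw1 and 1w pw2 changed places at 10 CPM and after thinning. For Krt36 1w pw2 was the highest in each case.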
